A study of Homo sapiens with 9 samples.

Results

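The comparison of SPTLC123 siRNA with scramble siRNA in Huh7 cells concerned the entry step of ceramide synthesis. It was formed from the 3 arrays titled with SPTLC123 siRNA and the 3 arrays titled with scramble siRNA, 6 of the 9 arrays of the series. Huh7 is a human hepatocarcinoma line that makes many plasma proteins of the hepatocyte. The other 3 arrays carried siRNA against DEGS1, the desaturase at the end of the same route, and were used here only to show where the SPTLC123 arrays stood apart from them.

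All groups were Huh7 cells grown in serum-containing medium and transfected with a lipid reagent at a final 20 nM siRNA, the scramble control included. SPTLC123 is the label for siRNA against SPTLC1, SPTLC2 and SPTLC3 given together, and the third of these was not analysed here. The labels place the cells 72 h after transfection, whereas the treatment protocol changes to a low-serum conditioned medium at 72 h and harvests after another 24 h. Both statements apply alike to every group. The labels call the arrays biological replicates without saying what was separate, so the p-values measure the spread between these samples. Ceramide itself and enzyme activity were not analysed here.

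Serine palmitoyltransferase sits in the membrane of the endoplasmic reticulum. It joins serine to palmitoyl-CoA, and the product is reduced, acylated by ceramide synthases and desaturated to ceramide. Ceramide is then built into sphingomyelin and glycosphingolipids, or cleaved to sphingosine, whose phosphate is a signal and the substrate of the only exit from the pathway. The liver supplies much of the sphingolipid of plasma lipoproteins, and ceramide is known for its links to insulin signalling and cell death.

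Values are log2 of the normalized intensity of a probe set, and differences are SPTLC123 minus scramble on the log2 scale with the SE of the limma fit. A gene was called, and is said to have risen or fallen, at an adjusted p under 0.05 by limma with Benjamini-Hochberg adjustment over 19775 genes. By this rule 1966 genes (9.94%) were called, 1051 higher (5.31%) and 915 lower (4.63%), with a median difference of -0.03 over all genes. Median centring of the arrays moved that median to 0.03 and the share of higher calls from 53.5% to 67.5%, so the balance of directions depended on the scaling. Of the calls, 954 (48.5%) were also made in each of the 9 fits that left out 1 array. Genes named as risen or fallen without a remark are among these. Each gene was read from its brightest probe set, and averaging its probe sets instead ended 51 of the 211 named calls and left a median of 88.2% of the difference. Where averaging ended a call, its adjusted p is given. Where the call stayed but the averaged difference was over 1.5 times smaller, its value is given. An ended call need not mean a smaller difference. In bulk RNA, fewer cells with a transcript and less transcript per cell cannot be told apart.

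The actin control probe sets set 3 arrays apart by a weak 5' signal, SPTLC123 replicate 3 and DEGS1 replicates 2 and 3. Their 3' minus 5' difference was 1.15 to 1.31 on the log2 scale, against 0.40 to 0.56 in the other 6 arrays, which hold all scramble arrays. Without these 3 arrays 1502 genes were called, 1290 of them among the 1966. Against the DEGS1 arrays 1713 genes (8.66%) were called, but 281 without these 3 arrays, where a single DEGS1 array remains and takes its spread from the rest. With the actin 3' minus 5' difference as a covariate 2048 genes were called against the DEGS1 arrays, 1603 of them among the 1713. Against scramble that fit called 2753 genes, all 1966 among them, ended none of the 211 named calls and left a median of 97.9% of their difference. Of the 14 measured markers of the hepatocyte and its tumour lines, none was under 4.87, the median of all probe sets, in both groups. Markers of stellate cells were below it in 5 of 10, of endothelium in 8 of 10 and of leukocytes in 6 of 10.

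The transcripts of both measured subunits were lower in every SPTLC123 array. SPTLC1, the subunit shared by every form of the enzyme, read 11.02, 10.83 and 10.98 in scramble and 8.53, 8.77 and 8.72 in SPTLC123. It fell by 2.27 ± 0.11 (adjusted p = 1.42e-06), which left 20.7% of the signal. Its 3 probe sets, which differ in brightness, fell alike, with differences of -2.27, -2.27 and -2.32. SPTLC2, which carries the catalytic lysine, read 5.97, 6.13 and 6.25 in scramble and 4.87, 5.22 and 5.13 in SPTLC123. It fell by 1.05 ± 0.11 (adjusted p = 0.00024), and 48.4% of the signal was left. The other 4 SPTLC2 probe sets were not uniform. One of them also fell (-1.02), and another differed by -1.33 with an adjusted p of 0.0576 among all probe sets. The remaining pair, with scramble levels near or below the median of all probe sets, differed by -0.24 and 0.06. In the DEGS1 arrays the main SPTLC2 probe set read 6.40, 6.24 and 6.29, and SPTLC123 differed from them by -1.24 ± 0.11 (adjusted p = 9.31e-05). SPTLC1 differed from the DEGS1 arrays by -2.04 ± 0.11 (adjusted p = 4.64e-06).

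**Figure D1:**
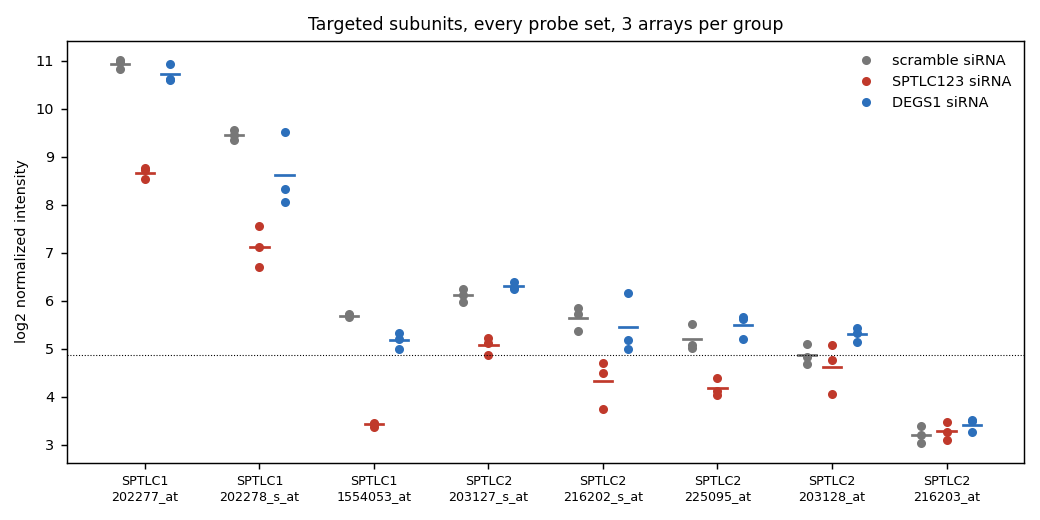
Log2 normalized intensity of each probe set of SPTLC1 and SPTLC2 (horizontal axis) in the 3 arrays of each siRNA group, with points for arrays, short lines for group means and a dotted line at 4.87, the median of all probe sets. The SPTLC123 arrays lie below the scramble arrays in all 3 SPTLC1 probe sets and in 3 of the 5 SPTLC2 probe sets.

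Around the silenced enzyme, its other subunits and regulators differed little. Of 9 measured genes 2 were called higher (22.2% called), with a median of 0.00. RTN4, a membrane-shaping protein of the endoplasmic reticulum that binds and restrains the enzyme, rose by 0.44 ± 0.08, from 12.49, 12.42 and 12.38 to 12.85, 12.82 and 12.94. Its call was lost when all its probe sets were averaged (adjusted p = 0.134). The palmitoyltransferase ZDHHC9 was higher by 0.34 ± 0.09, a call lost without 7 of the 9 arrays taken singly, among them SPTLC123 replicate 1 (adjusted p = 0.111) and replicate 3 (adjusted p = 0.114). The ORMDL proteins, which inhibit the enzyme when ceramide is plentiful, differed by -0.11 (ORMDL1), -0.46 (ORMDL2) and 0.20 (ORMDL3) and were not called. KDSR, the reductase of the next step, differed by -0.04.

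Among the genes that make ceramide a single one was called (12.5%). It was CERS2, the ceramide synthase of very-long-chain acyl groups and the main one of liver. CERS2 read 10.86, 10.76 and 10.83 in scramble, 9.11, 9.29 and 9.47 in SPTLC123 and 10.74, 10.98 and 11.18 in the DEGS1 arrays. The SPTLC123 arrays were the low ones and overlapped with neither group. CERS2 fell by 1.53 ± 0.13 (adjusted p = 4.66e-05) and differed from the DEGS1 arrays by -1.67 ± 0.13 (adjusted p = 3.43e-05). The other 7 of the 8 measured synthases, desaturases and hydroxylases ranged from -0.26 for CERS5 to 0.15 for CERS6. DEGS1 differed by -0.12.

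Of 15 genes that use or move ceramide 6 were called (40%), 3 in each direction, with a median of 0.02. Leaving out 1 array gave 1 to 4 higher and 1 to 3 lower, with 1 higher without scramble replicate 2 or 3 or SPTLC123 replicate 1 or 3 and 1 lower without scramble replicate 1 or 3 or SPTLC123 replicate 1. UGT8, the synthase of galactosylceramide, rose from 7.30, 7.16 and 7.47 to 8.33, 8.38 and 8.64, a difference of 1.14 ± 0.13 (adjusted p = 0.000302). GLTP, which carries glycolipids between membranes, fell from 8.75, 9.02 and 8.92 to 7.70, 7.90 and 7.70, by 1.13 ± 0.10 (adjusted p = 6.79e-05). These were the 2 members of the list that kept their call whichever array was left out. UGT8 read 8.51, 8.14 and 8.24 in the DEGS1 arrays and did not pass against them (0.15 ± 0.13, adjusted p = 0.533). GLTP differed from the DEGS1 arrays by -0.93 ± 0.10 (adjusted p = 0.000286). UGCG, the synthase of glucosylceramide, read 9.03, 8.34 and 8.89 in scramble and 9.47, 9.35 and 9.95 in SPTLC123. Its difference of 0.84 ± 0.20 was called, but not without scramble replicate 2 (adjusted p = 0.0819), scramble replicate 3 (adjusted p = 0.0501), SPTLC123 replicate 1 (adjusted p = 0.0538) or SPTLC123 replicate 3 (adjusted p = 0.0821). The ceramide 1-phosphate carrier CPTP (0.59) lost its call without the same 4 arrays, with adjusted p from 0.0517 to 0.0647. Neither UGCG (0.01, adjusted p = 0.988) nor CPTP (0.09, adjusted p = 0.738) passed against the DEGS1 arrays. The sphingomyelin synthases SGMS1 (0.37) and SGMS2 (0.08) and the ceramide transfer protein CERT1 (0.28) were not called.

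Further along, glycosyltransferases of gangliosides, globosides and sulfatide had 1 of 20 members higher and 1 lower (10% called), with a median of -0.02. The one that fell, ST3GAL1, a sialyltransferase that acts on galactose, read 7.58, 8.05 and 7.42 in scramble and 6.22, 6.54 and 6.36 in SPTLC123, a difference of -1.31 ± 0.16 (adjusted p = 0.000506). Its 2 other probe sets were called lower too. B4GALT5, which makes lactosylceramide, differed by 0.59 ± 0.14, a call lost without scramble replicate 2 or 3 or SPTLC123 replicate 1 or 3 (adjusted p = 0.0628 to 0.0916). ST3GAL1 differed from the DEGS1 arrays by -1.03 ± 0.16 (adjusted p = 0.00267), and B4GALT5 did not pass there (0.11 ± 0.14, adjusted p = 0.708). Of 14 lysosomal hydrolases and helper proteins 1 was called (7.14%). SMPD1, the acid sphingomyelinase, was higher by 0.40 ± 0.09, and the call was lost without scramble replicate 3 (adjusted p = 0.0643) or SPTLC123 replicate 1 (adjusted p = 0.0563). Averaging the SMPD1 probe sets gave 0.17 (adjusted p = 0.238).

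In the breakdown of and signalling by sphingosine 1-phosphate 4 of 17 members were called lower and 0 higher (23.5% called, median -0.09), and 13 were not called. SGPL1, the lyase through which sphingoid bases leave the pathway, read 8.68, 8.63 and 8.72 in scramble, 7.93, 7.96 and 7.87 in SPTLC123 and 8.81, 8.59 and 8.70 in the DEGS1 arrays. It fell by 0.76 ± 0.09 (adjusted p = 0.00036) and differed from the DEGS1 arrays by -0.78 ± 0.09 (adjusted p = 0.000394). APOM, the apolipoprotein that carries sphingosine 1-phosphate in plasma, fell from 10.35, 10.80 and 10.01 to 9.10, 9.32 and 8.82, by 1.31 ± 0.19 (adjusted p = 0.0015). APOM did not pass the test against the DEGS1 arrays (-0.33 ± 0.19, adjusted p = 0.342). SGPP1, a phosphatase of sphingosine 1-phosphate, fell by 0.51 ± 0.09 but was 0.77 ± 0.09 higher than in the DEGS1 arrays (adjusted p = 0.000652), where it read 5.17, 5.12 and 5.08. Its call against scramble was lost when its probe sets were averaged (adjusted p = 0.0838). The alkaline ceramidase ACER3 differed by -0.67 ± 0.16, a call lost without scramble replicate 1 or 3 or SPTLC123 replicate 1 or 2 (adjusted p = 0.0562 to 0.0785). Averaging the probe sets gave -0.24 for ACER3 (adjusted p = 0.148) and -0.49 for SGPL1, which stayed called (adjusted p = 0.0211).

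The supply of the enzyme's substrates showed a few lower genes. Of 19 genes of serine and glycine synthesis and uptake 3 were called lower and 0 higher (15.8% called), with a median of -0.25. The list's median deviation from the scramble mean was -0.34, -0.34 and -0.16 in the SPTLC123 arrays and -0.27, -0.26 and -0.19 in the DEGS1 arrays. Compared with the DEGS1 arrays 2 of the 19 were called lower and 0 higher. SLC38A4, an amino acid transporter of hepatocytes, fell by 0.91 ± 0.18, from 7.26, 7.73 and 7.37 to 6.56, 6.73 and 6.34. It lost its call only when its probe sets were averaged (-0.98, adjusted p = 0.147). PHGDH, the entry enzyme of serine synthesis, read 10.87, 11.57 and 11.12 in scramble and 10.52, 10.69 and 10.47 in SPTLC123. Scramble replicate 2 was its highest array, and without it the difference moved from -0.63 to -0.43 (adjusted p = 0.0618). PHGDH also lost its call without scramble replicate 3 or SPTLC123 replicate 1 or 3 (adjusted p = 0.0615 to 0.0898). The list had 1 lower call without scramble replicate 2, scramble replicate 3 or SPTLC123 replicate 1, but 6 without scramble replicate 1 and 5 without DEGS1 replicate 1. Among 31 genes that make, lengthen or desaturate acyl-CoA, 2 rose and 2 fell (12.9% called). ACSL5, which activates fatty acids, fell by 0.91 ± 0.15, and the very-long-chain acyl-CoA synthetase SLC27A2 by 1.02 ± 0.18. ELOVL2, an elongase of polyunsaturated acyl chains, rose by 0.48 ± 0.09, a call lost when its probe sets were averaged (adjusted p = 0.337). SLC38A4 (0.07), PHGDH (-0.03), ACSL5 (0.54), SLC27A2 (0.20) and ELOVL2 (0.17) did not pass against the DEGS1 arrays.

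Beyond the sphingolipid pathway, 271 genes (1.37%) were called with at least a 2-fold difference, 116 higher and 155 lower. The 20 largest increases and 20 largest decreases, chosen by their size in this comparison, are described below. Of the 20 increases 10 were also called higher than in the DEGS1 arrays (4.96% of all genes), and of the 20 decreases 14 were called lower than there (3.7% of all genes). These tests share the SPTLC123 arrays with the choice of the genes, so nothing is read from the counts.

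IGFBP3, the main carrier of insulin-like growth factors in plasma, had the largest increase. It read 6.21, 5.56 and 6.13 in scramble, 9.55, 9.17 and 9.36 in SPTLC123 and 7.23, 7.22 and 7.33 in the DEGS1 arrays. The SPTLC123 arrays were the highest, and they exceeded the DEGS1 arrays by 2.10 ± 0.16 on the log2 scale (adjusted p = 3.43e-05). MET, the receptor of hepatocyte growth factor, read 9.10, 9.22 and 9.04 in scramble, 11.11, 11.11 and 11.17 in SPTLC123 and 11.06, 10.82 and 10.90 in the DEGS1 arrays. MET thus differed from scramble by 2.01 ± 0.09 (adjusted p = 8.99e-07) and did not pass the test against the DEGS1 arrays (0.21 ± 0.09, adjusted p = 0.225). LZTFL1, a regulator of traffic to the primary cilium, read 5.94, 6.58 and 6.21 in scramble and 8.66, 8.57 and 8.36 in SPTLC123, a rise of 2.28 ± 0.15. PIP4K2A, a phosphoinositide kinase, read 7.90, 7.68 and 7.97 in scramble, 9.46, 9.41 and 9.44 in SPTLC123 and 9.32, 9.36 and 9.54 in the DEGS1 arrays. Its difference from the DEGS1 arrays was 0.03 ± 0.10. The RNA-binding protein MEX3D rose by 1.51 ± 0.12, from 7.74, 7.47 and 7.46 to 9.14, 8.96 and 9.11, and differed from the DEGS1 arrays by 0.04 ± 0.12. KLF11, a zinc finger transcription factor, rose by 1.54 ± 0.21, from 5.80, 5.12 and 5.32 to 7.40, 6.72 and 6.75, and differed from the DEGS1 arrays by 0.09 ± 0.21. The size of some of these increases depended on the probe set. Averaging the probe sets gave 0.70 for LZTFL1, 0.54 for MEX3D, 1.01 for PIP4K2A and 0.93 for KLF11, all still called at adjusted p of 0.00331 to 0.0111, and 1 of the 2 other MEX3D probe sets went the opposite way.

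ITGB8, an integrin subunit that releases active TGF-beta, read 7.09, 7.11 and 7.22 in scramble, 8.75, 8.67 and 8.91 in SPTLC123 and 7.68, 7.63 and 7.50 in the DEGS1 arrays. It rose by 1.64 ± 0.10 (adjusted p = 4.32e-06), and its 4 other probe sets had the same sign without being called. Averaging them all gave 0.48 for ITGB8 (adjusted p = 0.00826). GPRC5B, an orphan receptor coupled to G proteins, read 6.67, 6.84 and 6.94 in scramble, 8.86, 8.70 and 8.86 in SPTLC123 and 8.5, 8.30 and 8.25 in the DEGS1 arrays. It rose by 1.99 ± 0.11, or by 1.15 with its probe sets averaged (adjusted p = 0.000219), and stood 0.45 ± 0.11 above the DEGS1 arrays (adjusted p = 0.0239). SLC16A9, a transporter of the monocarboxylate family, rose by 1.65 ± 0.11, from 6.57, 6.49 and 6.84 to 8.32, 8.25 and 8.28, and stood 0.82 ± 0.11 above the DEGS1 arrays (adjusted p = 0.00118). CDS1, which makes CDP-diacylglycerol for phosphoinositides and cardiolipin, rose from 7.26, 7.21 and 7.20 to 9.07, 9.07 and 9.24. Its difference was 1.90 ± 0.15 from scramble and 0.65 ± 0.15 from the DEGS1 arrays (adjusted p = 0.0243). PTPMT1, a mitochondrial phosphatase of the cardiolipin route, rose by 2.06 ± 0.15, from 5.99, 6.03 and 6.19 to 8.32, 8.33 and 7.73, and did not pass against the DEGS1 arrays (0.45 ± 0.15, adjusted p = 0.091). The tight junction protein CLDN4 rose by 1.53 ± 0.14, from 5.66, 5.77 and 5.76 to 7.49, 7.34 and 6.97. Its 1 other probe set went the opposite way, and the average of both was 0.75 (adjusted p = 0.0014).

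Among the increases AKR1B10, an aldo-keto reductase of retinal and lipid aldehydes, stood farthest from the DEGS1 arrays. It read 6.70, 6.40 and 7.46 in scramble, 8.49, 8.31 and 8.26 in SPTLC123 and 4.91, 4.1 and 4.71 in the DEGS1 arrays. The 3 groups did not overlap, and the differences were 1.5 ± 0.26 from scramble (adjusted p = 0.00386) and 3.78 ± 0.26 from the DEGS1 arrays (adjusted p = 1.17e-05). Across 23 aldo-keto reductases and targets of NRF2, 2 were higher and 1 lower than scramble (13% called). Against the DEGS1 arrays 10 were higher and 0 lower, where 4.96% of all genes were higher. The DEGS1 arrays were the ones set apart. The list's median deviation from the scramble mean was -0.29, -0.48 and -0.28 in them, and 0.14, 0.04 and -0.01 in the SPTLC123 arrays. Without DEGS1 replicate 1, as without the 3 arrays of weak 5' signal, 4 were higher than scramble. ME1, the cytosolic malic enzyme, rose by 0.58 ± 0.12 against scramble, and the bile acid enzyme AKR1D1 fell by 0.74 ± 0.15. SLC26A3, a chloride and bicarbonate exchanger of the gut, read 6.19, 5.90 and 5.71 in scramble and 7.91, 7.79 and 7.07 in SPTLC123. It rose by 1.66 ± 0.30 (adjusted p = 0.00541) and did not pass against the DEGS1 arrays (0.99 ± 0.30, adjusted p = 0.0679). Averaging the SLC26A3 probe sets gave 0.90 (adjusted p = 0.0127).

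**Figure D2:**
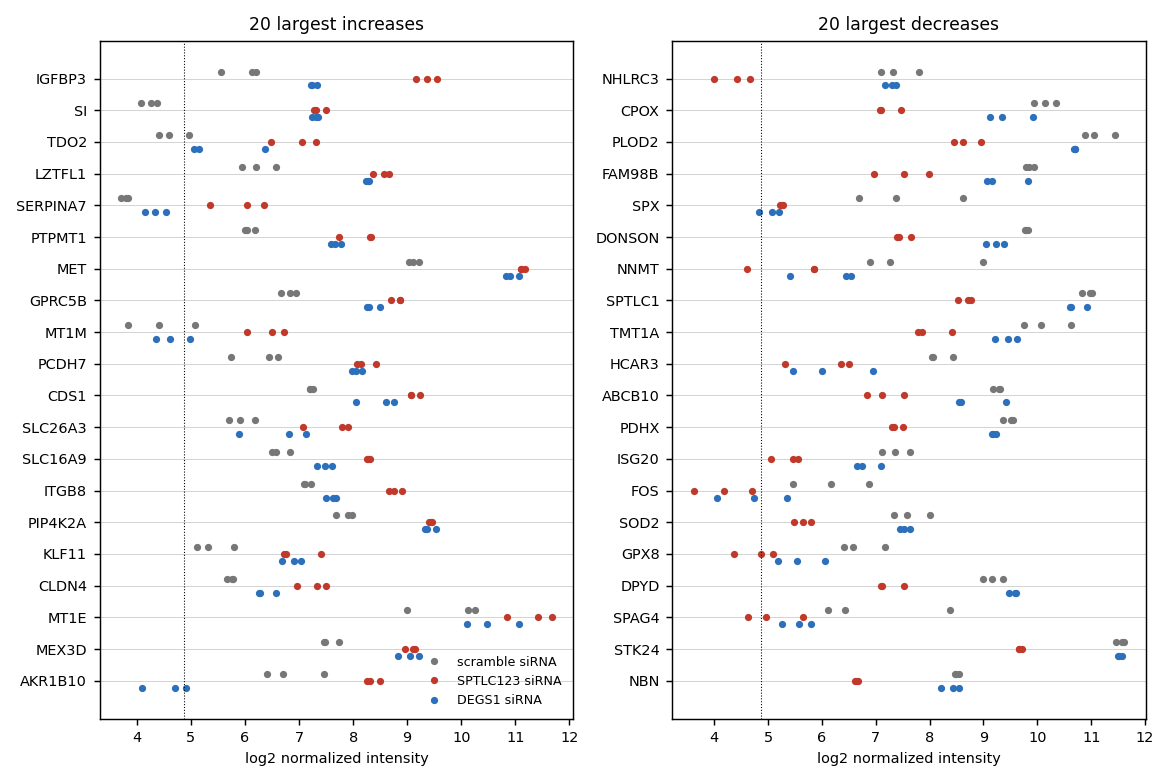
Log2 normalized intensity (horizontal axis) of the 20 largest increases and 20 largest decreases in SPTLC123 against scramble, 1 row per gene and 1 point per array, with a dotted line at 4.87, the median of all probe sets. IGFBP3 and AKR1B10 are highest in the SPTLC123 arrays, MET and PIP4K2A lie close in both siRNA groups, and PDHX, SOD2, DPYD and STK24 are low in the SPTLC123 arrays alone.

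CPOX, which makes protoporphyrinogen in the mitochondrial intermembrane space, had the second largest decrease. It read 9.94, 10.35 and 10.15 in scramble, 7.10, 7.46 and 7.08 in SPTLC123 and 9.91, 9.12 and 9.34 in the DEGS1 arrays. ABCB10, a transporter of the mitochondrial inner membrane linked to haem synthesis, read 9.29, 9.18 and 9.31 in scramble and 7.12, 7.52 and 6.84 in SPTLC123. It fell by 2.10 ± 0.22 (adjusted p = 0.000211) and differed from the DEGS1 arrays by -1.68 ± 0.22 (adjusted p = 0.001). In the list of haem synthesis and breakdown these were 2 of 3 lower genes among 18 (16.7% called). The third, PPOX, the enzyme after CPOX, differed by -0.53 ± 0.14. Its call was lost without any 1 of 6 arrays, with adjusted p from 0.0543 to 0.128, and averaging the PPOX probe sets gave -0.18 (adjusted p = 0.175).

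PDHX, which anchors the E3 subunit in the pyruvate dehydrogenase complex, read 9.36, 9.51 and 9.55 in scramble, 7.31, 7.51 and 7.34 in SPTLC123 and 9.24, 9.17 and 9.15 in the DEGS1 arrays. It fell by 2.09 ± 0.09 (adjusted p = 8.99e-07), and differed from the DEGS1 arrays by -1.80 ± 0.09 (adjusted p = 3.84e-06). SOD2, the superoxide dismutase of the mitochondrial matrix, read 7.33, 8.0 and 7.58 in scramble, 5.49, 5.65 and 5.79 in SPTLC123 and 7.45, 7.63 and 7.52 in the DEGS1 arrays. Scramble and DEGS1 overlapped, and SPTLC123 alone was low, at -1.99 ± 0.15 from scramble (adjusted p = 2.65e-05). SOD2 had 1 probe set with a single gene symbol, so its value rests on that probe set. STK24, a kinase of the STE20 family, was as tight, with 11.57, 11.46 and 11.61 in scramble and 9.71, 9.65 and 9.65 in SPTLC123. It fell by 1.88 ± 0.08 (adjusted p = 8.99e-07). DPYD, the first enzyme of pyrimidine breakdown, fell by 1.93 ± 0.13, from 9.0, 9.36 and 9.16 to 7.09, 7.11 and 7.52, with a difference of -2.31 ± 0.13 from the DEGS1 arrays (adjusted p = 4.64e-06). STK24 and DPYD each had 1 other probe set of the opposite sign, and averaging gave -0.82 for STK24 (adjusted p = 0.000198) and -0.77 for DPYD (adjusted p = 0.00119). TMT1A, a thiol methyltransferase, read 10.07, 10.62 and 9.75 in scramble and 7.85, 8.41 and 7.79 in SPTLC123. It fell by 2.13 ± 0.22, but by 0.60 with its probe sets averaged (adjusted p = 0.0152). HCAR3, a receptor of hydroxylated fatty acids with a near-identical copy in HCAR2, read 8.05, 8.43 and 8.07 in scramble and 6.35, 6.5 and 5.32 in SPTLC123. The HCAR3 value is uncertain for that copy, and its difference was -2.13 ± 0.36 (adjusted p = 0.00365).

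DONSON, a factor of replication forks, read 9.78, 9.83 and 9.77 in scramble and 7.44, 7.66 and 7.39 in SPTLC123, and 9.38, 9.05 and 9.23 in the DEGS1 arrays. NBN, a part of the complex that senses DNA breaks, read 8.49, 8.48 and 8.54 in scramble and 6.62, 6.67 and 6.65 in SPTLC123. It fell by 1.85 ± 0.10 (adjusted p = 1.75e-06). FAM98B, part of the tRNA ligase complex, fell by 2.36 ± 0.24, from 9.78, 9.84 and 9.94 to 7.52, 7.99 and 6.97. Over all probe sets the mean difference was -1.0 for NBN and -1.10 for FAM98B, both still called. The list of replication genes as a whole stood near the background, with 1 of 53 higher and 4 lower (9.43% called). Leaving out 1 array gave as few as 0 higher and 1 lower, the latter without scramble replicate 3 or SPTLC123 replicate 1 or 3. DONSON was the sole member that kept its call in every fit that left out 1 array.

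Some decreases rested on few arrays or on low signal. NNMT, which methylates nicotinamide, read 6.90, 8.99 and 7.26 in scramble and 5.85, 5.86 and 4.60 in SPTLC123. It was called, but not without SPTLC123 replicate 3 (adjusted p = 0.0643) or with a variance trend (adjusted p = 0.0509). SPAG4, a protein of the nuclear envelope, read 6.12, 8.38 and 6.42 in scramble and 4.97, 5.65 and 4.62 in SPTLC123. Its difference was -1.89, or -1.19 without scramble replicate 2, and it failed the test without SPTLC123 replicate 1 (adjusted p = 0.0958) or replicate 3 (adjusted p = 0.101). Scramble replicate 2 was the highest array for both, and also for SPX, a peptide hormone, at 6.69, 8.62 and 7.38 against 5.26, 5.22 and 5.27 in SPTLC123. FOS, an immediate early transcription factor, read 6.87, 6.16 and 5.46 in scramble and 4.71, 4.18 and 3.62 in SPTLC123, below the median of all probe sets. The glutathione peroxidase GPX8 of the endoplasmic reticulum (4.37 to 5.09) and NHLRC3 (3.99 to 4.67) also had SPTLC123 means below it. The size of these 3 decreases is therefore uncertain. NHLRC3 had the largest decrease of the comparison, -3.04 ± 0.19 (adjusted p = 7.27e-06), from 7.09, 7.80 and 7.32 in scramble. Of its 2 other probe sets 1 did not share the sign. On averaging, the difference was -1.43 for NNMT, -1.05 for GPX8 and -1.39 for NHLRC3, all still called.

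Plasma proteins made by the hepatocyte were lower in large number. Of 26 carrier and secreted proteins 11 fell and 1 rose (46.2% called), with a median of -0.27. HP, which binds free haemoglobin, read 7.70, 7.33 and 7.35 in scramble and 6.17, 6.33 and 6.54 in SPTLC123, a difference of -1.12 ± 0.14 (adjusted p = 0.000638). HPX, which binds free haem, fell by 0.88 ± 0.12, and SERPINA6, the carrier of cortisol, by 1.00 ± 0.14. AGT, the precursor of angiotensin, read 12.38, 12.45 and 12.20 in scramble and 11.56, 11.63 and 11.67 in SPTLC123. TTR, which carries thyroxine and retinol-binding protein, fell from 12.38, 12.42 and 12.21 to 11.44, 11.58 and 10.89, by 1.03 ± 0.18 (adjusted p = 0.00432). The exception was SERPINA7, another carrier of thyroxine, which rose from 3.71, 3.79 and 3.83, below the median of all probe sets, to 6.35, 6.03 and 5.36. With 16 added to the SERPINA7 intensities before the log its rise was 1.37, over 1.5 times smaller. ALB (-0.14) and AFP (-0.17) were not called.

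These 5 named falls did not pass against the DEGS1 arrays, where the differences ran from -0.34 for TTR to 0.10 for HPX. SERPINA7 was 1.58 ± 0.20 higher than there (adjusted p = 0.000863). Of the 11 lower calls, 6 were also made in every fit that left out 1 array. The count was 6 without scramble replicate 1, SPTLC123 replicate 1 or SPTLC123 replicate 3, 7 without scramble replicate 2 and 7 without the 3 arrays of weak 5' signal. With the actin covariate none of the named calls was lost.

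Clotting and complement showed the same direction. Of 31 genes of coagulation and fibrinolysis 9 fell and 0 rose (29% called, median -0.34), and 9 fell without the 3 arrays of weak 5' signal. Leaving out 1 array gave 7 to 12 lower, and 6 of the 9 kept the call in every such fit. KNG1, kininogen, read 9.41, 9.47 and 9.11 in scramble, 7.48, 7.89 and 7.40 in SPTLC123 and 9.07, 8.97 and 8.77 in the DEGS1 arrays. It fell by 1.74 ± 0.15 (adjusted p = 4.97e-05) and differed from the DEGS1 arrays by -1.35 ± 0.15 (adjusted p = 0.000298). SERPINC1, antithrombin, read 10.94, 11.34 and 10.78 in scramble and 9.38, 9.73 and 9.14 in SPTLC123, a difference of -1.61 ± 0.20 (adjusted p = 0.000603). In the DEGS1 arrays it read 10.06, 9.62 and 9.38, which overlapped with SPTLC123. SERPINF2, the inhibitor of plasmin, fell by 0.82 ± 0.10 and differed from the DEGS1 arrays by -0.77 ± 0.10. A2M, a broad protease inhibitor, fell by 1.04 ± 0.20, or by 0.67 with its probe sets averaged. TFPI, which checks the start of clotting, fell by 0.61 ± 0.11, a call lost when its probe sets were averaged (adjusted p = 0.279). The fibrinogen chains FGA (-0.23), FGB (-0.47) and FGG (-0.78) and prothrombin F2 (-0.30) were not called.

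Of 25 complement genes 7 fell and 0 rose (28% called, median -0.09), and 4 of the 7 kept the call in every fit that left out 1 array. Without SPTLC123 replicate 1 the count was 4. CFB, the protease of the alternative pathway, read 6.22, 7.27 and 6.12 in scramble and 5.06, 5.07 and 5.25 in SPTLC123, a difference of -1.41 ± 0.24 (adjusted p = 0.00383). CLU, clusterin, an inhibitor of the terminal complex and an extracellular chaperone, read 12.87, 12.89 and 12.89 in scramble, 11.47, 11.99 and 11.67 in SPTLC123 and 13.01, 12.82 and 12.86 in the DEGS1 arrays. It fell by 1.17 ± 0.12 and differed from the DEGS1 arrays by -1.19 ± 0.12 (adjusted p = 0.000232). MASP1, of the lectin pathway, fell by 1.16 ± 0.22 with its 4 other probe sets of the same sign. Averaging gave -0.64 for MASP1 and -0.84 for CFB, both still called. C3 (-0.40) and C5 (-0.47) were not called.

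Apolipoproteins and lipoprotein assembly had 4 of 30 lower and 0 higher (13.3% called, median -0.13), and all 4 kept their call whichever array was left out. Besides APOM they were APOC3, APOA1 and SOAT2. APOC3, an inhibitor of triglyceride clearance, read 10.51, 10.93 and 10.37 in scramble, 9.27, 9.51 and 9.19 in SPTLC123 and 10.21, 10.33 and 10.43 in the DEGS1 arrays. It fell by 1.28 ± 0.14 (adjusted p = 0.000299) and differed from the DEGS1 arrays by -1.0 ± 0.14 (adjusted p = 0.00164). Averaging the APOC3 probe sets gave -0.73 (adjusted p = 0.00119). SOAT2, which esterifies cholesterol for lipoproteins, fell by 1.02 ± 0.12. APOA1, the main protein of high-density lipoprotein, fell by 0.46 ± 0.09 and differed from the DEGS1 arrays by -0.67 ± 0.09 (adjusted p = 0.00132). Cholesterol synthesis itself had 1 of 24 called (4.17%). That was DHCR7 (0.44 ± 0.12), whose call was lost without 6 of the 9 arrays taken singly, at adjusted p of 0.0535 to 0.124, and averaging its probe sets gave 0.28 (adjusted p = 0.0412).

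Of the 14 hepatocyte markers that check the identity of the line, 6 were lower and 0 higher (42.9% called, median -0.35). Their summed linear intensity was 137300 to 146100 in scramble and 113900 to 122300 in SPTLC123. TTR and APOA1 kept the call in every fit that left out 1 array. The count of lower markers was 3 without scramble replicate 1, scramble replicate 2 or SPTLC123 replicate 1, and 2 without SPTLC123 replicate 3. Transcription factors of the liver had 1 of 27 called (3.7%, median 0.17). It was SOX4 (0.44 ± 0.10), lost without scramble replicate 2 or 3 or SPTLC123 replicate 1 or 3 (adjusted p = 0.0729 to 0.0847) or when the SOX4 probe sets were averaged (adjusted p = 0.0915). Cytochrome P450 enzymes had 1 of 34 called (2.94%). CYP4F3, which inactivates leukotrienes, fell by 0.94 ± 0.17.

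**Figure D3:**
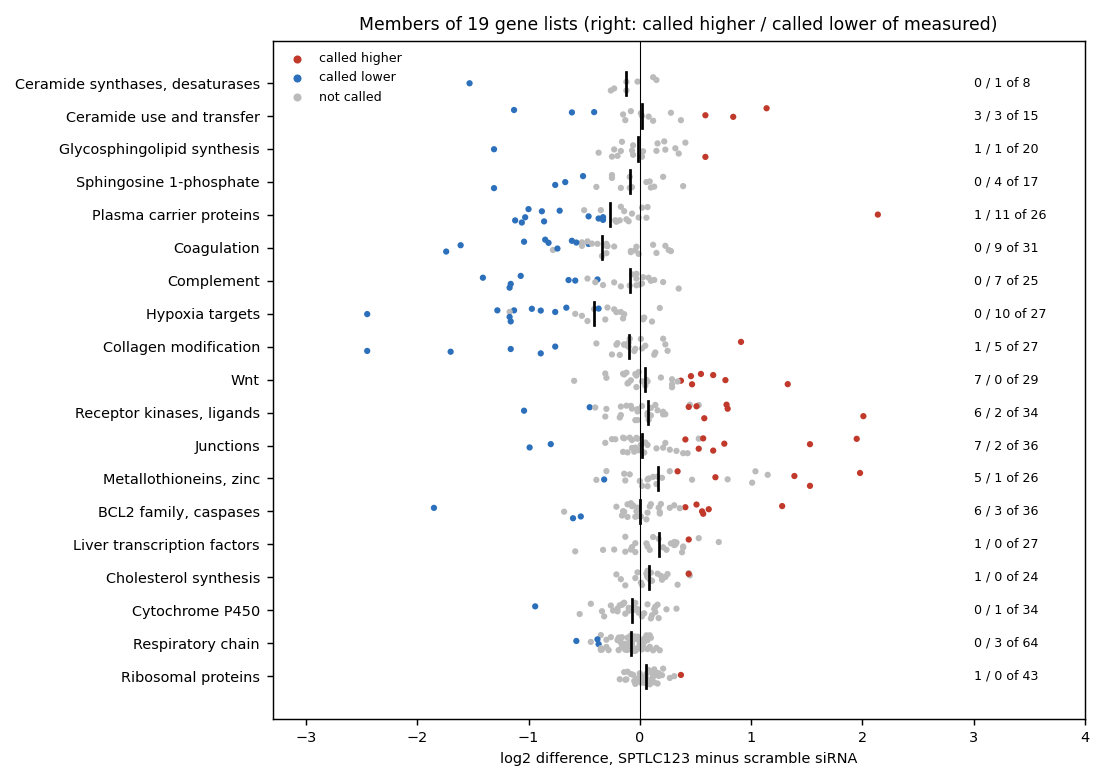
Log2 difference, SPTLC123 minus scramble (horizontal axis), of every measured member of 19 gene lists, with 1 point per gene, red for called higher, blue for called lower and grey for not called, and a black line at the list's median. The numbers at the right give members called higher, called lower and measured, from 0 / 9 of 31 for coagulation to 1 / 0 of 43 for ribosomal proteins.

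Targets of hypoxia-inducible factors were lower as well. These factors raise genes of collagen hydroxylation, oxidative folding, glycolysis and vessel growth when oxygen is low. The letters ACGTG are one form of their site in DNA, and other forms were not searched. Of 27 measured members 10 fell and 0 rose (37% called), with a median of -0.41. The 10 include EPAS1, itself a subunit of such a factor, which is counted with the targets here. The promoters of 4 of the 6 members that kept the call in every fit that left out 1 array show where these letters lie. Those of EPAS1 and LOX are not shown. Each sequence is the 250 bases before the annotated start, 5′ to 3′ on the strand of the gene, from RefSeq on GRCh38.p14, with ACGTG or its reverse complement CACGT in capitals. PLOD2 is at chr3:146161185-146161434 on the minus strand, P4HA1 at chr10:73096867-73097116 on the minus strand, ERO1A at chr14:52695559-52695808 on the minus strand and ADM at chr11:10304823-10305072 on the plus strand.
PLOD2: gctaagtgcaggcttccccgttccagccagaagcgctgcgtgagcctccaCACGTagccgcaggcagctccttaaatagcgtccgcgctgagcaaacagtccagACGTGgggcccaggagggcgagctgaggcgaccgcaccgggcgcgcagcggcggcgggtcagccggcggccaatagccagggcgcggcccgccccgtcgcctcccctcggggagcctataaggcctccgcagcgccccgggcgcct
P4HA1: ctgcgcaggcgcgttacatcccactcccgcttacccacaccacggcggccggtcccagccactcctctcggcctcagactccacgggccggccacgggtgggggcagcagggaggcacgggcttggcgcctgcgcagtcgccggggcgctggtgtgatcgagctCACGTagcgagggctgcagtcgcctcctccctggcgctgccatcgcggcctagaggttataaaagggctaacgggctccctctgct
ERO1A: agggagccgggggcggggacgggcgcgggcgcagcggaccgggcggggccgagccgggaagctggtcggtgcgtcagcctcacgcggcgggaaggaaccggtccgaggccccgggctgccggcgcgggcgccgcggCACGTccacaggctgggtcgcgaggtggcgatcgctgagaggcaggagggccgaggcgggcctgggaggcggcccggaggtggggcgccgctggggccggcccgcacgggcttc
ADM: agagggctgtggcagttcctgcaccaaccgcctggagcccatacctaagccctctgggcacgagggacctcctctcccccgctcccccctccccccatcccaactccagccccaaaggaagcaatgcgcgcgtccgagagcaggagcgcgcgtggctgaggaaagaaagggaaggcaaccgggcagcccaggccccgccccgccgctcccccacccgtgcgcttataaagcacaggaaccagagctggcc
The PLOD2 promoter held 2 matches, those of P4HA1 and ERO1A 1 each, and that of ADM 0 in this window. Searched on both strands, the letters occurred in 18.5% of the 35116 RefSeq promoters of this length. By gene, 14 of the 24 list members with a promoter entry had a match (58.3%), against 25.6% of the 15384 tested genes with one. The list was written as targets of these factors, and the share counts its members whether or not they fell. Nothing about the genes that fell is read from this contrast. A match is a description of the letters and not a bound site.

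PLOD2, a lysyl hydroxylase of collagen, read 11.06, 11.45 and 10.88 in scramble, 8.46, 8.95 and 8.62 in SPTLC123 and 10.69, 10.68 and 10.70 in the DEGS1 arrays. It fell by 2.45 ± 0.15 and differed from the DEGS1 arrays by -2.01 ± 0.15 (adjusted p = 3.43e-05). ERO1A, which reoxidizes protein disulfide isomerase in the endoplasmic reticulum, read 9.94, 10.10 and 9.89 in scramble and 8.75, 8.91 and 8.75 in SPTLC123. It fell by 1.17 ± 0.09 (adjusted p = 3.71e-05), and differed from the DEGS1 arrays by -0.80 ± 0.09 (adjusted p = 0.000504). P4HA1, the catalytic subunit of collagen prolyl hydroxylase, read 10.68, 11.36 and 10.66 in scramble and 9.71, 9.93 and 9.59 in SPTLC123, a difference of -1.16 ± 0.21 (adjusted p = 0.00541). Its 1 other probe set went the opposite way, and the average of both P4HA1 probe sets was -0.46 (adjusted p = 0.044). ADM, the vasodilator peptide adrenomedullin, fell by 0.66 ± 0.12, and LOX, which crosslinks collagen, by 0.89 ± 0.17. EPAS1, the hypoxia-inducible factor 2 alpha subunit, read 11.72, 11.73 and 11.74 in scramble and 11.04, 10.97 and 10.90 in SPTLC123. It fell by 0.76 ± 0.09 (adjusted p = 0.000329) and differed from the DEGS1 arrays by -0.47 ± 0.09 (adjusted p = 0.00736). Averaging the probe sets ended the calls of EPAS1 (-0.53, adjusted p = 0.0679) and LOX (-1.21, adjusted p = 0.124), although the LOX difference was then larger.

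Scramble replicate 2 was the highest scramble array for many of these targets. The median deviation of the list from the scramble mean was 0.25 in that array, against -0.13 and -0.08 in scramble replicates 1 and 3. It was -0.38, -0.39 and -0.48 in the SPTLC123 arrays and -0.29, -0.31 and -0.31 in the DEGS1 arrays. BNIP3L, a mitophagy receptor, read 9.58, 10.67 and 9.59 in scramble and 8.69, 8.98 and 8.33 in SPTLC123, and was not called without SPTLC123 replicate 3 (adjusted p = 0.0519). PDK1, which inhibits pyruvate dehydrogenase, differed by -1.13 ± 0.24 and was not called without SPTLC123 replicate 1 (adjusted p = 0.056) or replicate 3 (adjusted p = 0.0518). Without scramble replicate 2, 10 members were called lower. Without SPTLC123 replicate 3, as without the 3 arrays of weak 5' signal, 6 were. DDIT4, an inhibitor of mTOR signalling, had the widest scramble spread and was not called (-1.17, adjusted p = 0.278). NDRG1 (0.18), VEGFA (-0.31) and ANGPTL4 (-0.17), further known targets, were not called. Of the 27 members 4 were called lower than in the DEGS1 arrays and 0 higher, where 3.7% of all genes were lower. P4HA1 (-0.48, adjusted p = 0.204), LOX (-0.25, adjusted p = 0.424), BNIP3L (-0.49, adjusted p = 0.333) and PDK1 (-0.22, adjusted p = 0.66) did not pass that test.

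**Figure D4:**
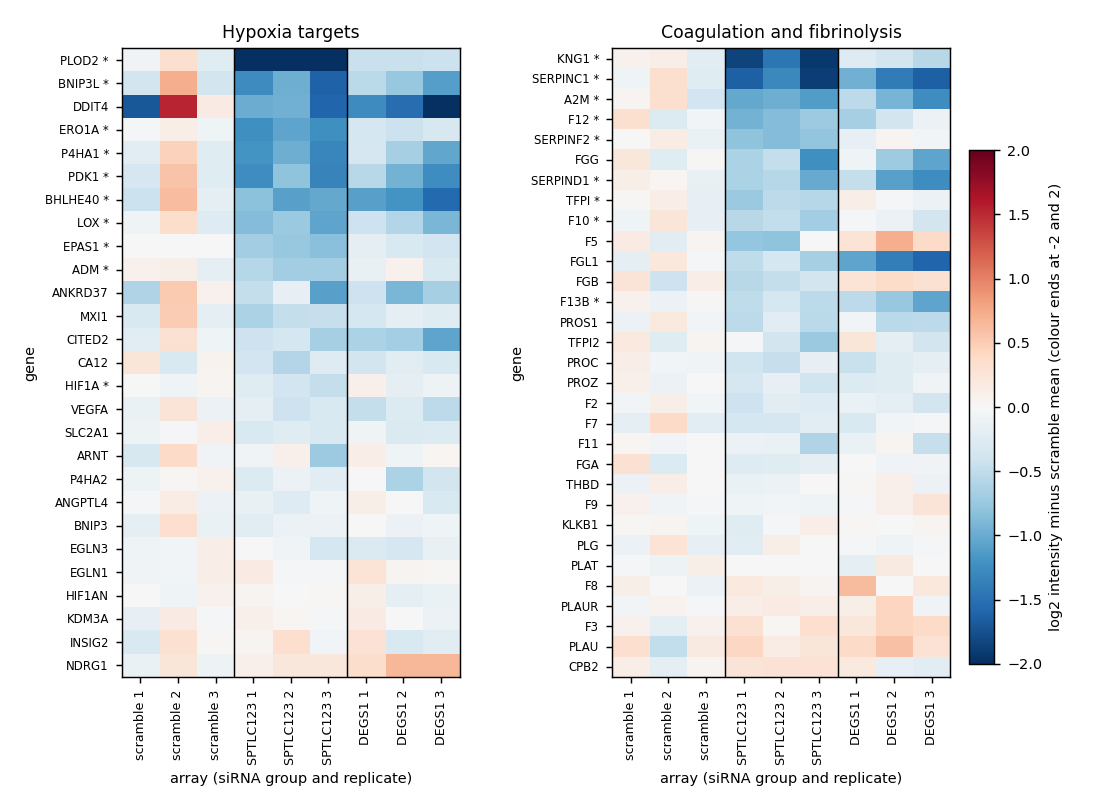
Log2 intensity minus the scramble mean, in colour, for the 27 hypoxia targets and the 31 genes of coagulation and fibrinolysis (vertical axes) in each of the 9 arrays (horizontal axes), with called genes marked by an asterisk. PLOD2 and KNG1 are lowest in the SPTLC123 arrays, and scramble replicate 2 has a median deviation of 0.25 over the hypoxia targets.

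Collagen-modifying enzymes, which share PLOD2, P4HA1 and LOX with the hypoxia list, had 5 of 27 lower and 1 higher (22.2% called, median -0.10). FKBP14, a prolyl isomerase of the endoplasmic reticulum that acts on collagen, read 8.95, 9.03 and 8.95 in scramble, 7.24, 7.36 and 7.23 in SPTLC123 and 7.88, 7.80 and 7.70 in the DEGS1 arrays. It fell by 1.70 ± 0.09 (adjusted p = 1.75e-06) with its 2 other probe sets called alike. It differed from the DEGS1 arrays by -0.52 ± 0.09 (adjusted p = 0.0046). SERPINH1, the collagen chaperone HSP47, went the other way, from 8.88, 8.73 and 9.02 to 9.81, 9.83 and 9.71, a rise of 0.91 ± 0.10 (adjusted p = 0.000291).

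Folding and degradation factors of the endoplasmic reticulum had 2 of 33 higher and 5 lower (21.2% called, median -0.12), and 4 of the 7 kept the call in every fit that left out 1 array. Without SPTLC123 replicate 1 there were 1 higher and 3 lower, and without scramble replicate 1 or 2 or SPTLC123 replicate 3 there was 1 higher. SSR1, a subunit of the translocon-associated complex, read 11.64, 11.44 and 11.62 in scramble and 10.12, 10.43 and 10.42 in SPTLC123. It fell by 1.24 ± 0.11 (adjusted p = 6.27e-05), and its 5 other probe sets had the same sign, with -0.82 for SSR1 on averaging. EDEM1, which hands misfolded glycoproteins to degradation, fell by 1.11 ± 0.12, while the disulfide isomerase PDIA4 rose by 0.70 ± 0.09, from 10.77, 10.68 and 10.68 to 11.30, 11.42 and 11.54. Neither passed against the DEGS1 arrays (-0.04 and -0.09). Of 48 genes of Golgi traffic 1 rose and 4 fell (10.4% called), near the background. ARCN1 and MCFD2 kept the call in every fit that left out 1 array. The list had 1 lower without SPTLC123 replicate 1, 2 lower without scramble replicate 3 or SPTLC123 replicate 2, and 3 higher and 7 lower without DEGS1 replicate 1. ARCN1, the delta subunit of the COPI coat, fell by 0.81 ± 0.08 (adjusted p = 0.00018). MCFD2, which with LMAN1 exports clotting factors from the endoplasmic reticulum, rose by 1.03 ± 0.14, from 9.28, 9.74 and 9.38 to 10.42, 10.57 and 10.51. LMAN1 differed by -0.48 ± 0.10, a call lost without SPTLC123 replicate 1 (adjusted p = 0.0562). With probe sets averaged MCFD2 differed by 0.42 (adjusted p = 0.03). The same change ended the call of LMAN1 (-0.64, adjusted p = 0.459), although its difference was then larger.

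Genes of the intestinal brush border included the increase with the smallest p of all. SI, the disaccharidase sucrase-isomaltase, read 4.26, 4.07 and 4.37 in scramble, below the median of all probe sets, and 7.28, 7.31 and 7.50 in SPTLC123. The DEGS1 arrays were as high, at 7.35, 7.24 and 7.31, and differed from SPTLC123 by 0.06 ± 0.10 (adjusted p = 0.788). LCT, the lactase, rose by 0.80 ± 0.10, from 4.62, 4.57 and 4.80, also below the median of all probe sets, to 5.58, 5.41 and 5.42. It was higher than in the DEGS1 arrays by 0.66 ± 0.10 (adjusted p = 0.00291). CDX2, the homeobox factor of the intestine, rose by 0.67 ± 0.10, from 7.16, 7.35 and 7.23 to 7.82, 7.99 and 7.94. ISX, another intestinal homeobox factor, differed by 0.51 ± 0.11, a call lost without scramble replicate 1 or 2 or SPTLC123 replicate 1 or 3 (adjusted p = 0.0555 to 0.0636). With these 4 higher and 0 lower of 28 (14.3% called), the list's median was -0.13. VIL1 (-0.14), ANPEP (0.32) and MGAM (-0.36) were not called.

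The SI promoter is shown because CDX factors bind sites built on the letters TTTAT. The 250 bases before its RefSeq start lie at chr3:165078497-165078746 on the minus strand (GRCh38.p14) and are printed 5′ to 3′ on the strand of the gene, with TTTAT and its reverse complement ATAAA in capitals.
SI: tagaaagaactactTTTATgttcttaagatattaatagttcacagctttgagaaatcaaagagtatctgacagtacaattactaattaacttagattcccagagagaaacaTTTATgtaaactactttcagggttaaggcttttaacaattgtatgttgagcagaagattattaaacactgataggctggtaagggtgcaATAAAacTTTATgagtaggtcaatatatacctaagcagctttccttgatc
The window held 4 matches on both strands. The letters are common, occurring in 32.7% of all promoters of this length, and 7 of 20 list members with a promoter entry had them (35%), against 31.9% of tested genes. No binding was measured.

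Metallothioneins bind zinc and copper. Of 26 metallothioneins and zinc genes 5 were called higher and 1 lower (23.1% called, median 0.16), and MT1M and MTF1 kept the call in every fit that left out 1 array. MT1M read 4.40, 3.84 and 5.08 in scramble and 6.72, 6.04 and 6.49 in SPTLC123, a rise of 1.98 ± 0.28 (adjusted p = 0.0013) from a level below the median of all probe sets. MT1E read 10.12, 8.99 and 10.25 in scramble and 11.42, 10.85 and 11.67 in SPTLC123. Replicate 2 was the lowest of its group in both. MT1E was not called without SPTLC123 replicate 1 (adjusted p = 0.06) or replicate 3 (adjusted p = 0.0594). MT1F (1.39 ± 0.31) was not called without scramble replicate 2 (adjusted p = 0.0582), SPTLC123 replicate 1 (adjusted p = 0.0663) or SPTLC123 replicate 3 (adjusted p = 0.0628). MTF1, the zinc-sensing factor that activates these genes, rose by 0.68 ± 0.12, from 7.36, 7.03 and 7.43 to 7.93, 7.98 and 7.94. MT1X (1.15), MT1H (1.04), MT1G (1.01) and MT2A (0.79) missed the threshold at adjusted p of 0.0515 to 0.15. Metallothionein probe sets can share sequence between copies, so the values of single copies are uncertain. Without SPTLC123 replicate 1 or replicate 3 the list had 2 higher calls, and without DEGS1 replicate 1 it had 8.

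Growth factor genes changed in both directions. In the insulin and insulin-like growth factor list 2 of 23 rose and 1 fell (13% called, against 9.94% of all genes). Besides IGFBP3, GRB10, an adaptor that restrains the insulin receptor, rose by 0.75 ± 0.14, but averaging its probe sets left 0.16 (adjusted p = 0.501). Among 34 other receptor tyrosine kinases and ligands 6 rose and 2 fell (23.5% called, median 0.07). PDGFA, a ligand of platelet-derived growth factor receptors, rose by 0.79 ± 0.13, from 7.60, 7.58 and 8.01 to 8.55, 8.37 and 8.63. FGF19, the bile acid hormone, rose by 0.51 ± 0.10, and EFNA1, a ligand of Eph receptors, fell by 1.04 ± 0.18. Without scramble replicate 3 the list had 3 higher calls.

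Of 26 immediate early genes and inhibitors of MAP kinase signalling 2 rose and 3 fell (19.2% called). PHLDA1 rose by 1.09 ± 0.18, with its 5 other probe sets of the same sign, and the AP-1 member FOSL2 by 0.78 ± 0.14, or by 0.49 with its probe sets averaged. EGR1 read 9.76, 8.43 and 8.60 in scramble and 7.85, 7.33 and 6.61 in SPTLC123. It lost its call without scramble replicate 1 or 3 or SPTLC123 replicate 2 or 3 (adjusted p = 0.0629 to 0.121) and when the EGR1 probe sets were averaged (adjusted p = 0.0587).

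Wnt genes were called in 1 direction, with 7 of 29 higher and 0 lower (24.1% called, median 0.05), and 5 of the 7 kept the call in every fit that left out 1 array. LGR5, a receptor of R-spondins and a Wnt target, read 6.93, 6.30 and 6.91 in scramble, 8.09, 7.74 and 8.32 in SPTLC123 and 7.30, 7.01 and 7.31 in the DEGS1 arrays. It rose by 1.33 ± 0.19 (adjusted p = 0.00125) and exceeded the DEGS1 arrays by 0.84 ± 0.19 on the log2 scale (adjusted p = 0.0185). RNF43, a ubiquitin ligase that removes Wnt receptors, rose by 0.77 ± 0.11, from 7.64, 7.51 and 7.78 to 8.32, 8.31 and 8.61. GLUL, glutamine synthetase, a Wnt target of the hepatocyte, rose by 0.55 ± 0.10, a call lost when its probe sets were averaged (adjusted p = 0.234). FZD5, a Wnt receptor, rose by 0.66 ± 0.11 but differed from the DEGS1 arrays by -0.93 ± 0.11 (adjusted p = 0.000632), where it read 11.03, 11.03 and 10.99. DKK3, a secreted protein of the Dickkopf family, rose by 0.47 ± 0.09. The mean over the probe sets was 0.36 for FZD5 and 0.31 for DKK3, both still called. Without the 3 arrays of weak 5' signal 6 members were higher and 2 lower.

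The TGF-beta and BMP list had 5 of 31 higher and 2 lower (22.6% called, median 0.09). None of the 5 higher calls was kept in every fit that left out 1 array. The co-receptor TGFBR3 fell from 10.54, 10.41 and 10.52 to 9.39, 9.44 and 9.69, by 0.98 ± 0.10 (adjusted p = 0.00018). ID2, an inhibitor of basic helix-loop-helix factors and a BMP target, fell by 0.63 ± 0.09 and differed from the DEGS1 arrays by -0.62 ± 0.09 (adjusted p = 0.00242). The 5 higher members, TGFB1 and SMAD3 among them, numbered 0 without SPTLC123 replicate 3, 1 without SPTLC123 replicate 1 or scramble replicate 2, 2 without scramble replicate 3 and 3 without scramble replicate 1. Both TGFB1 and SMAD3 lost the call when probe sets were averaged (adjusted p = 0.259 and 0.224).

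Junction genes had 7 of 36 higher and 2 lower (25% called, median 0.02), and 8 of the 9 kept the call in every fit that left out 1 array. Besides CLDN4 and PCDH7, the tight junction protein CLDN1 rose by 0.76 ± 0.09, from 10.95, 10.91 and 10.90 to 11.71, 11.68 and 11.66. CDH1, the epithelial cadherin, read 10.85, 11.05 and 10.93 in scramble and 9.93, 10.13 and 10.36 in SPTLC123, a difference of -0.80 ± 0.12 (adjusted p = 0.00174), and the gap junction protein GJB1 fell by 0.99 ± 0.16. Averaging the probe sets ended the calls of CLDN1 (0.60, adjusted p = 0.102) and CDH1 (-1.09, adjusted p = 0.0665), although the CDH1 difference was then larger. PCDH7, a protocadherin, read 6.61, 5.74 and 6.44 in scramble and 8.43, 8.15 and 8.08 in SPTLC123, a rise of 1.95 ± 0.19, or of 0.83 with the PCDH7 probe sets averaged (adjusted p = 0.00338). Of 15 integrins 13.3% were called. Of these 1 rose, ITGB8, and 1 fell, the collagen receptor subunit ITGA1 (-0.83 ± 0.09). In 40 matrix genes 3 rose and 4 fell (17.5% called). VCAN, the proteoglycan versican, rose by 1.24 ± 0.19, from 5.04, 4.87 and 4.91 to 6.24, 6.29 and 6.01, and differed from the DEGS1 arrays by -0.95 ± 0.19 (adjusted p = 0.0101). The lower matrix calls numbered 1 without scramble replicate 2 and 2 without SPTLC123 replicate 1 or 2.

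Markers of bile duct cells had 3 of 9 higher and 0 lower (33.3% called, median 0.09). In level, 7 of the 9 exceeded the median of all probe sets in at least 1 group. The summed linear intensity of all 9 was 3160 to 3858 in the scramble arrays and 3918 to 5473 in the SPTLC123 arrays. Its part in other results was not tested. TFF3, a mucosal peptide, rose by 0.77 ± 0.10, from 7.09, 7.44 and 7.24 to 8.13, 7.98 and 7.97, and the adhesion protein EPCAM by 0.57 ± 0.11. KRT19, a keratin of ducts, differed by 0.75 ± 0.16, a call lost without scramble replicate 2 (adjusted p = 0.0563) or SPTLC123 replicate 1 (adjusted p = 0.0611), and averaging the KRT19 probe sets gave 0.21 (adjusted p = 0.406). Markers of stellate cells and of endothelium, 10 each, had 0 called, with medians of -0.09 and -0.03. Of 10 leukocyte markers CD14 was called lower (-0.62 ± 0.15), near the median of all probe sets, and not without 4 of the 9 arrays taken singly (adjusted p = 0.0546 to 0.0904).

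In redox defence 2 of 27 genes rose and 3 fell (18.5% called, median 0.01), and all 5 kept the call in every fit that left out 1 array. SOD2 and GPX8 fell with GLRX, glutaredoxin, which read 8.85, 9.55 and 8.67 in scramble, 7.77, 7.80 and 7.50 in SPTLC123 and 7.73, 7.74 and 7.57 in the DEGS1 arrays. GPX2, a glutathione peroxidase of gut and liver, rose by 1.18 ± 0.16, from 9.86, 9.98 and 10.44 to 11.26, 11.30 and 11.27, and was 0.94 ± 0.16 higher than in the DEGS1 arrays (adjusted p = 0.00418). Catalase, CAT, rose by 0.43 ± 0.08. In conjugation 5 of 34 rose and 3 fell (23.5% called, median -0.03). UGDH, which makes UDP-glucuronate, rose by 0.69 ± 0.10, from 10.73, 10.73 and 10.86 to 11.41, 11.37 and 11.59. PAPSS2, which makes the sulfate donor, rose by 0.57 ± 0.09, and SULT1C2, a sulfotransferase, fell by 1.05 ± 0.15. UGT2B15, which conjugates androgens, rose by 0.87 ± 0.11 from a level below the median of all probe sets, or by 0.43 with its probe sets averaged, and its family shares sequence between copies. Higher conjugation calls numbered 3 without scramble replicate 3 or SPTLC123 replicate 1, and lower ones 1 without SPTLC123 replicate 3.

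Energy and amino acid metabolism had calls in both directions. CPT1A, which admits fatty acids to mitochondria, rose by 0.88 ± 0.10, from 6.88, 6.63 and 6.76 to 7.70, 7.71 and 7.50, the one member of 41 genes of fatty acid oxidation called higher. Averaging its probe sets gave 0.35 (adjusted p = 0.0553). That list had 9.76% called, near the background, and its 3 lower calls were lost without scramble replicate 2 or 3 or SPTLC123 replicate 1 or 3. MGLL, which releases fatty acids from monoacylglycerol, fell by 0.71 ± 0.10 and was 0.60 ± 0.10 above the DEGS1 arrays (adjusted p = 0.00353). In the list of phospholipid and triglyceride genes, which holds MGLL, 5 of 49 rose and 3 fell (16.3% called). CDS1 and MGLL kept the call in every fit that left out 1 array. The list's higher calls numbered 1 without scramble replicate 3 or SPTLC123 replicate 3 and 2 without DEGS1 replicate 2 or 3. They numbered 3 without any of the other scramble arrays or SPTLC123 replicate 1.

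Of 47 genes of glycolysis, glycogen and gluconeogenesis 3 were called higher and 5 lower (17% called, against 9.94% of all genes, median -0.12). Of these 8 calls 2 were kept in every fit that left out 1 array. PCK1, the entry enzyme of gluconeogenesis, read 4.79, 5.73 and 5.03 in scramble and 6.39, 6.06 and 6.08 in SPTLC123. It differed by 1.00 ± 0.21, a call lost without scramble replicate 3 (adjusted p = 0.0575) or SPTLC123 replicate 1 (adjusted p = 0.0616). GCKR, which holds glucokinase inactive, fell by 0.52 ± 0.11. The list of the urea cycle and amino acid breakdown had 3 of 39 higher and 4 lower (17.9% called, median -0.15). Of these 7 calls 3 were kept in every fit that left out 1 array. In this list ODC1, the first enzyme of polyamine synthesis, rose by 0.72 ± 0.11, from 12.62, 12.47 and 12.81 to 13.44, 13.32 and 13.30. ODC1 stood 0.96 ± 0.11 above the DEGS1 arrays (adjusted p = 0.000318). TDO2, the tryptophan dioxygenase of liver, read 4.96, 4.41 and 4.60 in scramble and 7.05, 7.32 and 6.48 in SPTLC123, and its second probe set went the other way without being called. The average of both TDO2 probe sets was 1.11 (adjusted p = 0.00432). ASNS, asparagine synthetase, read 10.66, 12.46 and 11.36 in scramble and 10.10, 10.13 and 10.35 in SPTLC123, so that its difference of -1.30 ± 0.33 came with a wide scramble spread and was -0.81 without scramble replicate 2. It was called, but not without scramble replicate 3 (adjusted p = 0.0686) or any SPTLC123 array (adjusted p = 0.0591 to 0.0983), nor with the ASNS probe sets averaged (adjusted p = 0.0789). The amino acid response and tRNA synthetase list had 3 of 30 lower and 0 higher (10%, median -0.28). Its lower calls numbered 11 without scramble replicate 1, 1 without SPTLC123 replicate 3 and 0 without scramble replicate 3 or SPTLC123 replicate 1 or 2.

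Cell death genes had 6 of 36 higher and 3 lower (25% called, median 0.00), of which 4 kept the call in every fit that left out 1 array. TNFRSF10A, a death receptor of TRAIL, read 5.55, 5.41 and 5.53 in scramble, 6.92, 6.59 and 6.81 in SPTLC123 and 5.96, 5.81 and 5.36 in the DEGS1 arrays. It rose by 1.28 ± 0.15 and exceeded the DEGS1 arrays by 1.07 ± 0.15 on the log2 scale (adjusted p = 0.00139). Averaging the TNFRSF10A probe sets gave 0.72 against scramble (adjusted p = 0.021). PMAIP1, the pro-death protein NOXA, read 7.28, 8.33 and 8.0 in scramble and 6.37, 5.75 and 5.95 in SPTLC123, a difference of -1.85 ± 0.24 (adjusted p = 0.000746). BIRC2, an inhibitor of apoptosis, fell by 0.60 ± 0.09. MCL1, a survival protein that binds NOXA, rose by 0.62 ± 0.11, but averaging its probe sets gave 0.25 (adjusted p = 0.55). Higher calls numbered 2 without scramble replicate 1 or SPTLC123 replicate 1, and 3 without the 3 arrays of weak 5' signal.

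Phosphatase 2A subunits and kinases described as effectors of ceramide had 4 of 29 higher and 3 lower (24.1% called, median 0.17). MAPK8, the stress kinase JNK1, read 7.73, 8.01 and 7.93 in scramble, 6.84, 6.63 and 6.49 in SPTLC123 and 8.21, 7.92 and 7.79 in the DEGS1 arrays. It fell by 1.23 ± 0.13 (adjusted p = 0.00024), with its 4 other probe sets of the same sign, and differed from the DEGS1 arrays by -1.32 ± 0.13 (adjusted p = 0.000194). The scaffold subunits of phosphatase 2A rose, PPP2R1A by 0.47 ± 0.09 and PPP2R1B by 0.90 ± 0.12, from 9.02, 8.62 and 9.02 to 9.86, 9.68 and 9.81. FOXO3, a transcription factor restrained by insulin signalling, fell by 0.48 ± 0.10. Averaging the probe sets ended the calls of PPP2R1B (adjusted p = 0.148) and FOXO3 (adjusted p = 0.0715).

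In the cell cycle list 4 of 46 rose and 3 fell (15.2% called). There were 2 higher and 0 lower without SPTLC123 replicate 1, and 7 higher without DEGS1 replicate 1. CCNE1, the cyclin of entry into S phase, rose by 1.13 ± 0.13, from 8.12, 7.78 and 8.25 to 9.14, 9.11 and 9.28, and its 1 other probe set went the opposite way, with 0.50 as the average of both (adjusted p = 0.00578). Its kinase partner CDK2 differed by -0.64 ± 0.16, a call lost without any 1 scramble array or SPTLC123 replicate 1 or 3 (adjusted p = 0.0507 to 0.0847) or with the CDK2 probe sets averaged (adjusted p = 0.268). In the interferon response 4 of 44 fell and 0 rose (9.09% called, median -0.14), near the background of 9.94%. All 4 kept the call in every fit that left out 1 array. ISG20, an exonuclease, read 7.11, 7.64 and 7.36 in scramble, 5.05, 5.47 and 5.55 in SPTLC123 and 7.09, 6.66 and 6.74 in the DEGS1 arrays. IFIT1, which binds viral RNA, fell from 4.77, 5.77 and 5.12 to 3.43, 3.86 and 3.82, the latter below the median of all probe sets, a difference of -1.52 that was -0.89 with 16 added to the IFIT1 intensities. MX2 fell by 0.53 ± 0.09. Of 39 chemokine and NF-kappaB genes 2 rose and 2 fell (10.3% called), near the background. NFKBIA, the inhibitor of NF-kappaB, rose by 0.65 ± 0.10, from 9.33, 9.28 and 9.18 to 9.99, 9.86 and 9.91, or by 0.36 with its probe sets averaged. Without SPTLC123 replicate 1 the list had 1 higher and 4 lower, and without scramble replicate 1 or 3 or SPTLC123 replicate 2 it had 1 higher. The cytokine IL18 fell by 0.75 ± 0.15.

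Lists of the basic machinery of the cell stood near or below the background of 9.94%. Ribosomal proteins had 1 of 43 called (2.33%) and respiratory chain subunits 3 of 64 (4.69%), and in neither list did a member keep its call in every fit that left out 1 array. Lysosome and autophagy genes had 1 of 49 higher and 4 lower (10.2%), with 3 higher and 1 lower without SPTLC123 replicate 3, 2 higher without SPTLC123 replicate 2, 2 lower without scramble replicate 2 and 4 higher without DEGS1 replicate 1. The lower genes included the protease CTSB, which fell by 0.72 ± 0.08 with its 4 other probe sets of the same sign. Proteasome genes had 4 of 40 higher and 0 lower (10%), and 2 higher without scramble replicate 2 or 3 or any SPTLC123 array. The assembly factor PSMG4 rose by 1.20 ± 0.11, though averaging its probe sets gave 0.26 (adjusted p = 0.376), and the core subunit PSMA4 rose by 0.44 ± 0.08, from 12.08, 12.09 and 12.08 to 12.52, 12.57 and 12.46. Iron genes had 2 of 21 lower (9.52%). The exporter SLC40A1 differed by -0.52 ± 0.11 and lost its call without scramble replicate 2 or 3 or SPTLC123 replicate 2 (adjusted p = 0.0536 to 0.0581).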

How the data were processed

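RNA of 9 Huh7 samples, 3 per siRNA group, was labelled with biotin and measured on 1-colour Affymetrix arrays. The authors deposited normalized intensity on a linear scale, with 1 value for each probe set in each sample. RMA, GCRMA 2.12.1 and limma 2.14.7 are listed as tools, per the submitters' processing notes. No role or order is given, so which of the first pair made the values is not given in the sources used here. Array medians of 27.92 to 30 showed that the arrays were already on 1 scale.

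The intensity values were log2-transformed with no pseudocount. Of 54613 probe sets without the 62 controls, 41091 had 1 gene symbol in the platform annotation, 1801 had several and 11721 were not listed. Each of 19775 genes was read from the brightest of its 1-gene probe sets, by the mean of the 9 arrays. For 1291 called genes another probe set existed, and for 365 of these it was called in the same direction, for 5 in the opposite one. A probe set's brightness depends on its probes, so levels were not compared between genes.

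A model with a mean for each group was fitted across the 9 arrays with limma 3.58.1 (lmFit and eBayes, R 4.3.3, statmod 1.5.0), leaving 6 residual degrees of freedom. Tests were two-sided with Benjamini-Hochberg adjustment over all genes, and every adjusted p is from this fit or a named alternative. Simulated data with known changes were used to test the code. Array number and signal over background limit the precision, and low signals compress a fold.

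Named were the targets, the 20 strongest calls by size in each direction, given no overlap of the arrays and a higher group brighter than the median probe set, and up to 5 called members of each list by adjusted p. Uncalled members stand beside them. The 54 lists (1672 genes) and the members were chosen with earlier results of these data known. They are described by counts and medians, without a set test. Alternatives were the mean of probe sets, leaving out dim genes, 2 scalings, a variance trend, 2 groups only, array weights, adding 16 before the log, a threshold of 0.01, leaving out each array in turn, and a block for the replicate number. Chosen after seeing the data were an actin covariate and a fit without the 3 arrays of weak 5' signal. Promoters came from RefSeq (GRCh38.p14).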

Additional observations from a re-analysis of the deposited data

How the results depend on the processing

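The direction of the 211 named genes was the same under the 21 alternatives tried. In 496 of 4424 values the call was lost. A threshold of 0.01 ended 78 of the 211 calls, leaving out SPTLC123 replicate 1 ended 58, leaving out SPTLC123 replicate 3 ended 53 and averaging the probe sets ended 51. At an adjusted p of 0.01, 883 genes were called, 488 higher and 395 lower, with 717 against the DEGS1 arrays. Averaging a gene's probe sets gave 152 genes called with at least a 2-fold difference, 144 of them among the 271. Leaving out 1 array gave 1178 to 2381 called genes, 619 to 1276 higher and 559 to 1105 lower, with the fewest without SPTLC123 replicate 1. Against the DEGS1 arrays it gave 841 to 2911. Array weights gave 3999 there, and leaving out the 3 arrays of weak 5' signal 281. The actin covariate gave 2753 against scramble, with all 1966 included, and 2048 against the DEGS1 arrays. The cause of these shifts was not tested. Quantile normalization gave 46.6% higher calls and median centring 67.5%. Under both scalings 9 to 11 hypoxia targets, 9 to 11 plasma carriers and 8 or 9 coagulation genes were lower.

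Whether the replicate numbers pair the arrays was not settled. Deviations of same-numbered SPTLC123 and scramble arrays correlated at 0.02, 0.21 and 0.01. SPTLC123 replicates 1 and 2 correlated best with the scramble array of their own number, and replicate 3 did not. With the replicate number as a block 2062 genes were called, 1111 higher and 951 lower.

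With 3 arrays per group, differences of single genes near background, and members whose calls were lost on leaving out 1 array, are the least certain.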
